A study of Mus musculus with 6 samples.

Results

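The genes described here make steroid hormones, or regulate the cells that make them, in the adrenal cortex and the gonad, organs that form beside the embryonic kidney. They are 10 genes, Nr5a1, Nr5a2, Nr0b1, Star, Cyp11a1, Cyp17a1, Cyp21a1, Hsd3b1, Mc2r and Scarb1, and all 21 probe sets that the platform annotation gives to them alone were taken, of 45037 non-control probe sets on the array. Affymetrix MOE430.2 arrays were hybridised with RNA from whole E13.5 kidneys of mouse embryos. The 6 samples were 3 of genotype Fz4-/- and 3 of Fz4+/+, with both genotypes taken once from every one of 3 litters. The labels name no strain, no sex and no treatment, and give no number of embryos per sample, so p-values measure the spread between these samples. Fz4, the product of Fzd4, is a frizzled receptor that Wnt ligands and Norrin activate.

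Steroid hormones are made from cholesterol. Scarb1 encodes a receptor that takes up cholesterol from lipoproteins, Star encodes the protein that moves it into the mitochondrion, and Cyp11a1 encodes the enzyme that cuts its side chain in the first step. Hsd3b1, Cyp17a1 and Cyp21a1 encode enzymes of later steps, of which Cyp21a1 serves the adrenal cortex and Cyp17a1 the gonads and the fetal adrenal. Mc2r encodes the receptor for the pituitary hormone ACTH. The nuclear receptor Nr5a1 (SF-1) switches on many of these genes and is needed for adrenals and gonads to form, Nr5a2 (LRH-1) is its close relative with roles in liver, gut and ovary, and Nr0b1 (DAX-1) represses their action.

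Nuclear receptors of the Nr5a family often bind DNA that contains AGGTCA, so promoters of members are shown with that motif. The genes shown are those for which a promoter sequence was at hand. They were not chosen by expression, and a link of the motif to expression was not tested. RefSeq promoters (GRCm38.p6) matched 4 of the 10 genes with 6 start sites, and the 250 bases before the start are considered. Capitals mark AGGTCA or its reverse complement TGACCT, and the Hsd3b1 promoter is shown as one in which neither was found.
Nr0b1, chrX:86191525-86191774, plus strand: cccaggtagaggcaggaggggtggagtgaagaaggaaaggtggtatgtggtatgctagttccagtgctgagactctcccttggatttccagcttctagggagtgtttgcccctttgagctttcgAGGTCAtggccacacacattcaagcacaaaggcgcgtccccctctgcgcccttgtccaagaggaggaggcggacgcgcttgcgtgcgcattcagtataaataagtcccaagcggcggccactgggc
Cyp11a1, downstream start site, chr9:58014702-58014951, plus strand: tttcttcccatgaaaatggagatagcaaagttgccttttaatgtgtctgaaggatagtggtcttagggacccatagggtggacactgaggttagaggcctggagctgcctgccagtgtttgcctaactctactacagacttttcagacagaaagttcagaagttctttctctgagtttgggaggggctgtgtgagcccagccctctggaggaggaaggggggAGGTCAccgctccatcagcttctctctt
Nr5a2, chr1:136960449-136960698, minus strand: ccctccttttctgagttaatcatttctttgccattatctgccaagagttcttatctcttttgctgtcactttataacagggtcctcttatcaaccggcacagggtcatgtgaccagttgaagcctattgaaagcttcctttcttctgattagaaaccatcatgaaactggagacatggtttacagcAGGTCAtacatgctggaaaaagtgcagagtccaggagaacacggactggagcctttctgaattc
Hsd3b1, chr3:98859795-98860044, minus strand: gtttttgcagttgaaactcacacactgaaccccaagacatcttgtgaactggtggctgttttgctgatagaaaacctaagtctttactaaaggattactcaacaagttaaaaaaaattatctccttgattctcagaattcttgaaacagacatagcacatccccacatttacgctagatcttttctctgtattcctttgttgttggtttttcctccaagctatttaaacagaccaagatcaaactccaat
The motif began 126 bases before the start in Nr0b1, 28 in Cyp11a1 and 64 in Nr5a2. It was not found at the upstream start site of Cyp11a1 or at the other start site of Nr5a2. On either strand, AGGTCA occurred in 14.0% of 32851 promoters of this length. The longer form AAGGTCA, which contains it, occurred in 4.08% of them and in none of the 6 member promoters. TATAAA was present in Nr0b1, beginning 32 bases before the start, and in Nr5a2 on the reverse strand. It occurred in 12.4% of all promoters.

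The labels and the tissue were checked first. The brightest Fzd4 probe set read 3.58 to 6.22 log2 in Fz4-/- and 10.31 to 11.21 in Fz4+/+. The mean of 11 measured kidney markers, Six2, Wt1 and Ret among them, lay between 9.52 and 9.75 log2 in the 6 samples. The median log2 value of the arrays lay between 6.62 and 6.74. Of 12 markers of steroid-making cells 11 were on the array by name, and 3 of these, Star, Cyp21a1 and Mc2r, had a probe set in the tested range. The defining genes Nr5a1, Cyp11a1, Cyp17a1 and Hsd3b1 lay below it, so the readings of these genes lay near the dim end of the array. In whole organs, fewer cells of a type and less RNA per cell cannot be told apart.

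No steroid gene was called different between the genotypes after adjustment. limma, fitted across the whole table, called 0 of 27022 tested probe sets (0.0%), and 239 of them (0.884%) had an unadjusted p under 0.05. Fzd4 itself was not called, although its brightest probe set differed by -6.16 ± 0.68 (SE), with limma's adjusted p of 0.999988. The absence of a call therefore does not show that a gene was unchanged. Probe sets were tested if their mean over all samples reached the 40th percentile, 5.89 log2. Of the 21 member probe sets 10 passed, from 5 genes (Nr5a2, Star, Cyp21a1, Mc2r and Scarb1), and each had limma's adjusted p of 0.999988. The other 11 are given with values from the same fit without that filter, with no adjusted p. Over all 21 probe sets, 2 had an unadjusted p under 0.05 in limma, Nr5a2 1456521_at (higher in Fz4-/-) and Nr0b1 1417760_at (lower), where 1.18% of all non-control probe sets did. With the litter as a block these were 3 of 21, with Cyp11a1 1448804_at added, against 3.2% of all. The median difference, Fz4-/- minus Fz4+/+, was -0.07 log2 over the 21 probe sets and 0.01 over all non-control probe sets.

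**Figure D1:**
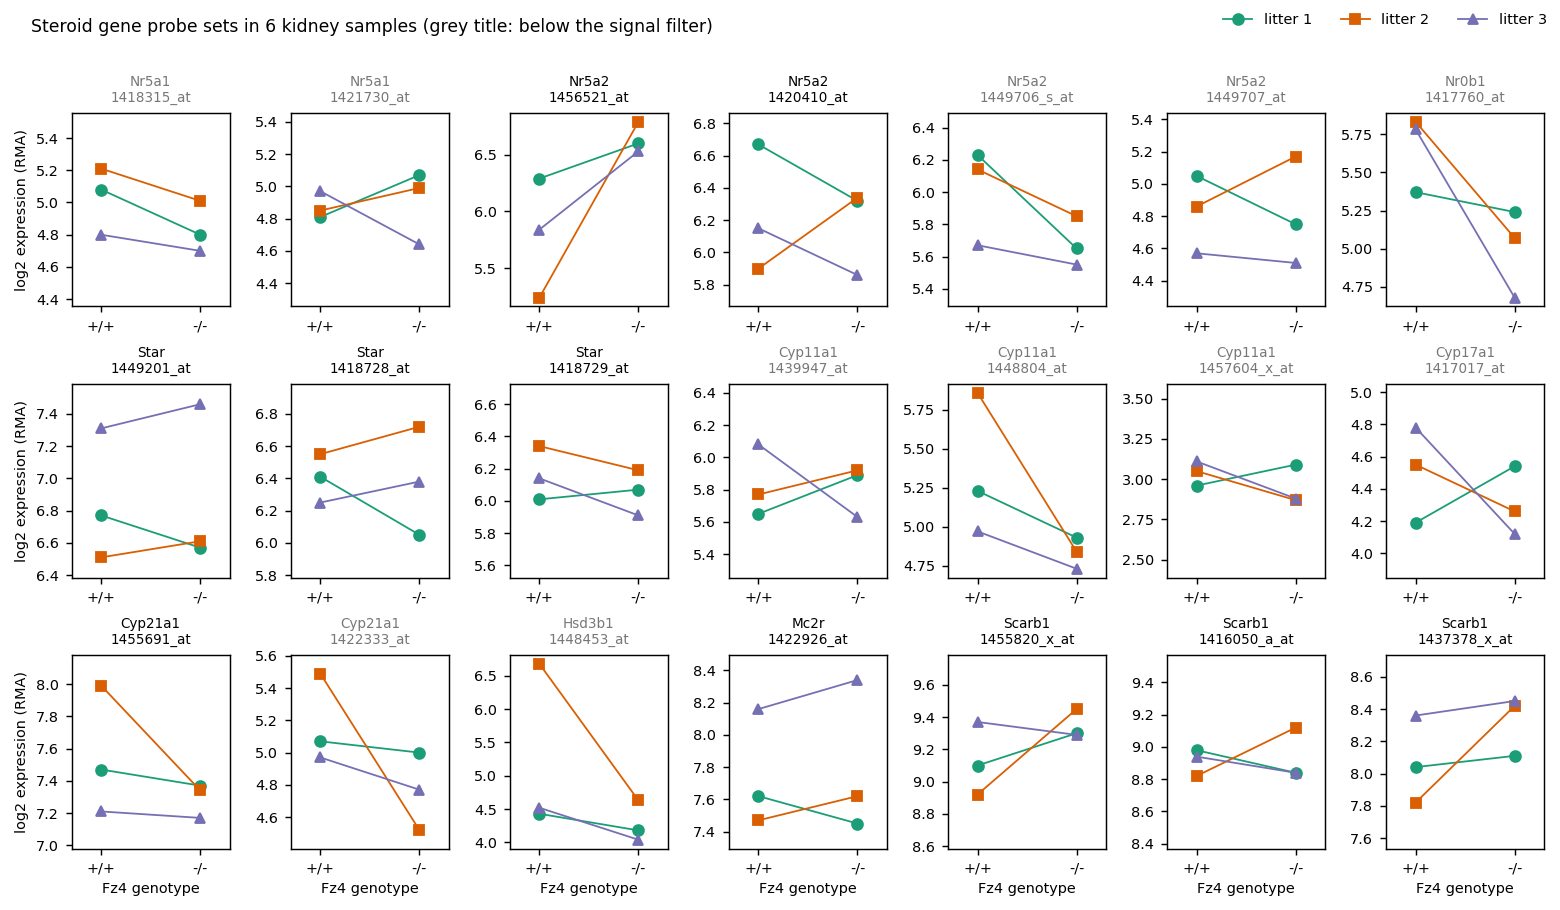
Log2 expression (y axis) of each of the 21 member probe sets in Fz4+/+ and Fz4-/- kidneys (x axis), 1 point per sample and a line joining the samples of a litter; y axes differ between panels, and grey titles mark the 11 probe sets below the signal filter. The Fz4+/+ sample of litter 2 stands at 6.68 for Hsd3b1, where all other samples lie between 4.04 and 4.63, and both litter 3 samples stand above the others for Mc2r.

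Among the nuclear receptors, Nr0b1 separated the genotypes, with all 3 Fz4-/- readings under all 3 Fz4+/+ readings. In litters 1 to 3, Fz4-/- samples read 5.24, 5.07 and 4.68 log2, against 5.37, 5.83 and 5.78 in Fz4+/+. The closest samples, both of litter 1, were 0.13 apart, and the gap widened to 0.76 in litter 2 and 1.11 in litter 3. The difference was -0.67 ± 0.20 (SE), with an unadjusted p of 0.0162 in limma and an exact permutation p of 0.1, the smallest that 3 against 3 can give. This probe set lay below the filter, so no adjusted p is given. Of all non-control probe sets 2.44% were lower in Fz4-/- with no overlap between the genotypes, and among the members these were 2 of 21, Nr0b1 and Cyp11a1 1448804_at.

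Nr5a1 itself did not differ beyond the spread of the samples. On 1418315_at the Fz4-/- samples read 4.80, 5.01 and 4.70 log2, against 5.08, 5.21 and 4.80 in Fz4+/+, a difference of -0.19 ± 0.16 (SE). On 1421730_at the Fz4-/- samples read 5.07, 4.99 and 4.64, against 4.81, 4.85 and 4.97, a difference of 0.02 ± 0.15. The groups overlapped on both probe sets. The first was lower in Fz4-/- in all 3 litters, the second in litter 3 alone, so the probe sets of this gene did not share a direction.

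The 4 probe sets of Nr5a2 disagreed more than those of any other member. On 1456521_at every Fz4-/- sample (6.60, 6.79 and 6.53 log2) read above every Fz4+/+ sample (6.29, 5.24 and 5.84), and the Fz4+/+ sample of litter 2 was the lowest. The difference was 0.85 ± 0.27 (SE), with limma's unadjusted p of 0.0193, its adjusted p of 0.999988 and an exact permutation p of 0.1. Within litters 1 to 3 it was 0.31, 1.55 and 0.69, and it was 0.58 once the Fz4+/+ sample of litter 2 was left out. Of all non-control probe sets 2.13% were higher with no overlap. The next probe set, 1420410_at, read 6.32, 6.34 and 5.86 in Fz4-/- and 6.67, 5.90 and 6.15 in Fz4+/+. Its groups overlapped, with a difference of -0.07 ± 0.24. Below the filter, 1449706_s_at differed by -0.33 ± 0.18 and 1449707_at by -0.01 ± 0.21. The probe sets of Nr5a2 thus spanned 1.18 log2 in their differences, and the mean of the 4 gave 0.11 ± 0.18 for the gene. Which transcripts each probe set reads was not analysed here.

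The genes whose profile was most like Nr5a2 1456521_at, the tested member probe set that varied most, were Pdzk1ip1, Folr1, Efr3a, Mapk14, Hdc, Ptgr2, Fabp4 and Ptpro. Likeness was the root mean square difference over the 6 samples after each profile was centred on its mean, and it ran from 0.172 for Pdzk1ip1 to 0.215 log2 for Ptpro. Folr1 encodes a folate receptor, Fabp4 a fatty acid binding protein and Ptpro a phosphatase of podocytes. Pdzk1ip1 read 8.38, 8.23 and 8.24 in Fz4-/- and 8.16, 7.16 and 7.78 in Fz4+/+. All 8 had their lowest value in the Fz4+/+ sample of litter 2, which follows from their choice by a profile that was lowest there.

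**Figure D2:**
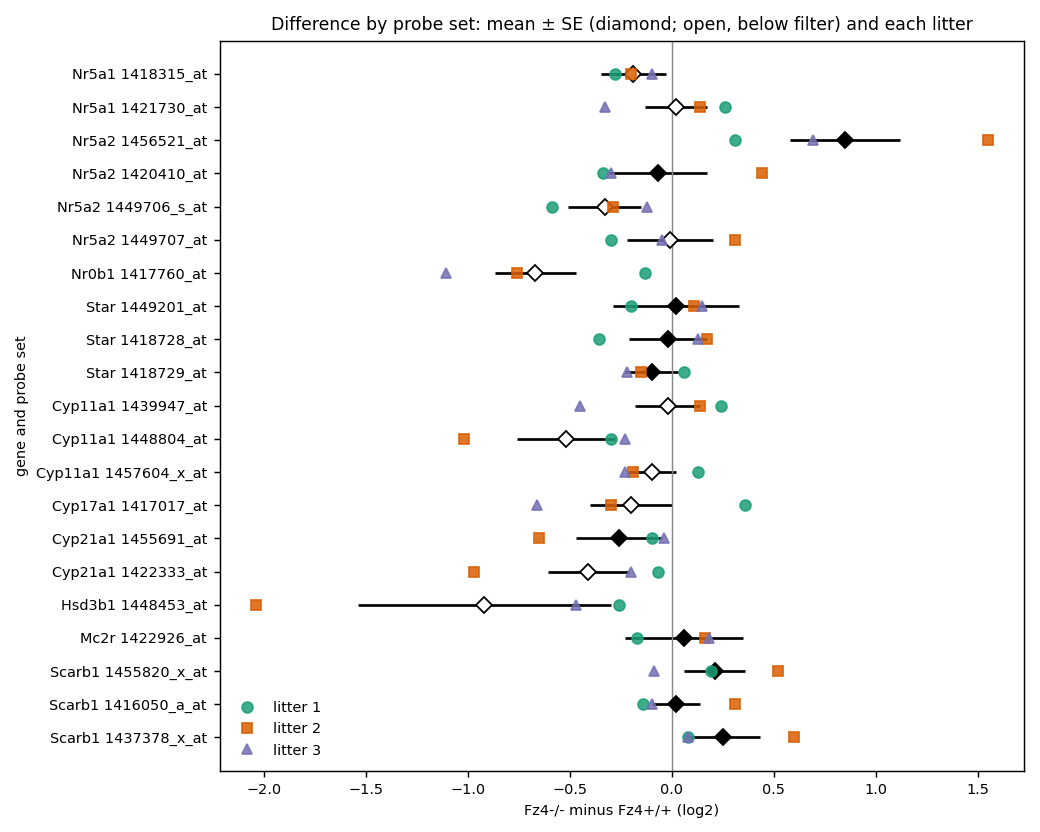
Difference between the genotypes (Fz4-/- minus Fz4+/+, log2, x axis) for each member probe set (y axis): diamonds with bars are the difference ± SE from limma, filled where the probe set was tested and open where it lay below the filter, and coloured points are the differences within each litter. All 3 litters lie below 0 for 7 of the 21 probe sets, Nr0b1 and Hsd3b1 among them, against 10.6% of all non-control probe sets. They lie above 0 for 2, Nr5a2 1456521_at and Scarb1 1437378_x_at, against 11.6% of all. The litter 2 point of Hsd3b1 lies at -2.04.

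For the supply of cholesterol, Scarb1 was bright and nearly level. On 1455820_x_at the Fz4-/- samples read 9.30, 9.45 and 9.29 log2, against 9.10, 8.92 and 9.37 in Fz4+/+, a difference of 0.21 ± 0.15 (SE). On 1437378_x_at the 3 Fz4-/- readings were 8.11, 8.42 and 8.45 and the 3 Fz4+/+ readings 8.04, 7.82 and 8.36, with a difference of 0.25 ± 0.18, and on 1416050_a_at the difference was 0.02 ± 0.12. The groups overlapped on each. The Fz4+/+ sample of litter 2 was the lowest of the 6 on all 3 probe sets. All 3 differences were above 0 as deposited, whereas that of 1416050_a_at was -0.02 after another quantile normalisation.

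Star differed by less than its SE on all 3 probe sets. On 1449201_at the Fz4-/- samples read 6.57, 6.61 and 7.46 log2, against 6.77, 6.51 and 7.31 in Fz4+/+, and both samples of litter 3 were higher than the other 4. The difference was 0.02 ± 0.31 (SE), and a litter block lowered the SE to 0.11. The other probe sets did not repeat the litter pattern. On 1418728_at the readings were 6.05, 6.72 and 6.38 against 6.41, 6.55 and 6.25, a difference of -0.02 ± 0.19, and on 1418729_at they were 6.07, 6.19 and 5.91 against 6.01, 6.34 and 6.14, a difference of -0.10 ± 0.13.

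Mc2r followed the litter in the same way. The Fz4-/- samples read 7.45, 7.62 and 8.34 log2, against 7.62, 7.47 and 8.16 in Fz4+/+, so litter 3 was highest in both genotypes. The difference was 0.06 ± 0.29 (SE), with the SE at 0.12 under a litter block. Such a pattern, with litter 3 giving the 2 highest samples, was found in 2 of 21 member probe sets and in 27.5% of all non-control probe sets, so it was not particular to these genes. The accessory protein of this receptor, Mrap, read 5.61 to 5.70 on its brighter probe set.

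Among the enzymes, the most uneven reading was that of Hsd3b1. Its Fz4-/- samples read 4.18, 4.63 and 4.04 log2 and its Fz4+/+ ones 4.43, 6.68 and 4.52. A single sample, the Fz4+/+ one of litter 2, stood 2.04 above the next highest, and the other 5 lay within 0.59 of each other. The difference was -0.92 ± 0.62 (SE), with limma's unadjusted p of 0.185 and an exact permutation p of 0.3. With that sample left out it was -0.19. Hsd3b1 belongs to a family of near-identical copies, so which copy this probe set reads is uncertain.

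Both probe sets of Cyp21a1 and 1 of 3 of Cyp11a1 were also highest in that sample, whereas the other 2 of Cyp11a1 were highest in the Fz4+/+ sample of litter 3. On Cyp11a1 1448804_at the Fz4-/- samples read 4.93, 4.84 and 4.73 log2, against 5.23, 5.86 and 4.97 in Fz4+/+. The groups did not overlap, but the nearest samples were only 0.04 apart. The difference was -0.52 ± 0.24 (SE), with limma's unadjusted p of 0.0720, and -0.27 when the litter 2 Fz4+/+ sample was left out. The brighter probe set of this gene, 1439947_at, read 5.89, 5.92 and 5.63 against 5.65, 5.77 and 6.08, a difference of -0.02 ± 0.16 that became 0.02 after another quantile normalisation. The third, 1457604_x_at, read 2.87 to 3.11 in all samples, at the bottom of the range of the array. The no-overlap pattern of Cyp11a1 therefore rested on 1 of 3 probe sets.

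The 2 probe sets of Cyp21a1 had the same direction in every litter. On 1455691_at the Fz4-/- samples read 7.37, 7.34 and 7.17 log2, against 7.47, 7.99 and 7.21 in Fz4+/+, a difference of -0.26 ± 0.21 (SE), with limma's unadjusted p of 0.266. Litters 1 to 3 differed by -0.10, -0.65 and -0.04. On 1422333_at the readings were 5.00, 4.52 and 4.77 against 5.07, 5.49 and 4.97, a difference of -0.41 ± 0.20, with -0.07, -0.97 and -0.20 by litter. With the litter 2 Fz4+/+ sample left out, the differences were -0.04 and -0.26. The groups overlapped on both. Mouse Cyp21a1 has a near-identical pseudogene, so signal from that copy cannot be set apart here.

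Cyp17a1 showed a different order. The Fz4-/- samples read 4.54, 4.26 and 4.12 log2, against 4.19, 4.55 and 4.78 in Fz4+/+. The Fz4+/+ sample of litter 3 was highest and the groups overlapped. The difference was -0.20 ± 0.20 (SE), and by litter it was 0.36, -0.30 and -0.66. It ran from -0.36 to -0.06 as each sample was left out in turn.

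Across the members, the Fz4+/+ sample of litter 2 was the highest of the 6 on 7 of 21 probe sets (33.3%), where it was highest on 18.2% of all non-control probe sets. These 7 were Hsd3b1, Nr0b1, Cyp11a1 1448804_at, both of Cyp21a1, Nr5a1 1418315_at and Star 1418729_at. It was lowest on 5 of 21 (23.8%), against 26.6% of all. The Fz4-/- sample of litter 3 was the lowest on 12 of 21 (57.1%), against 16.4% of all. Of the 21, 7 were lower in Fz4-/- in all 3 litters (33.3%, against 10.6% of all) and 2 were higher in all 3 (9.52%, against 11.6%). Probe sets of a gene share its RNA, and these counts are a description of 6 samples. Cyp11b1, an adrenal enzyme that is no member, read 4.98 in the Fz4+/+ sample of litter 2 and 3.54 to 4.15 in the others, while Cyp11b2 was highest in the Fz4+/+ sample of litter 1, at 3.54 against 3.33. Both lay below the filter. Of 16 steroid enzymes and cofactors that are no members, which include both, 3 were highest in the Fz4+/+ sample of litter 2. Of all non-control probe sets 18.2% were highest there.

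**Figure D3:**
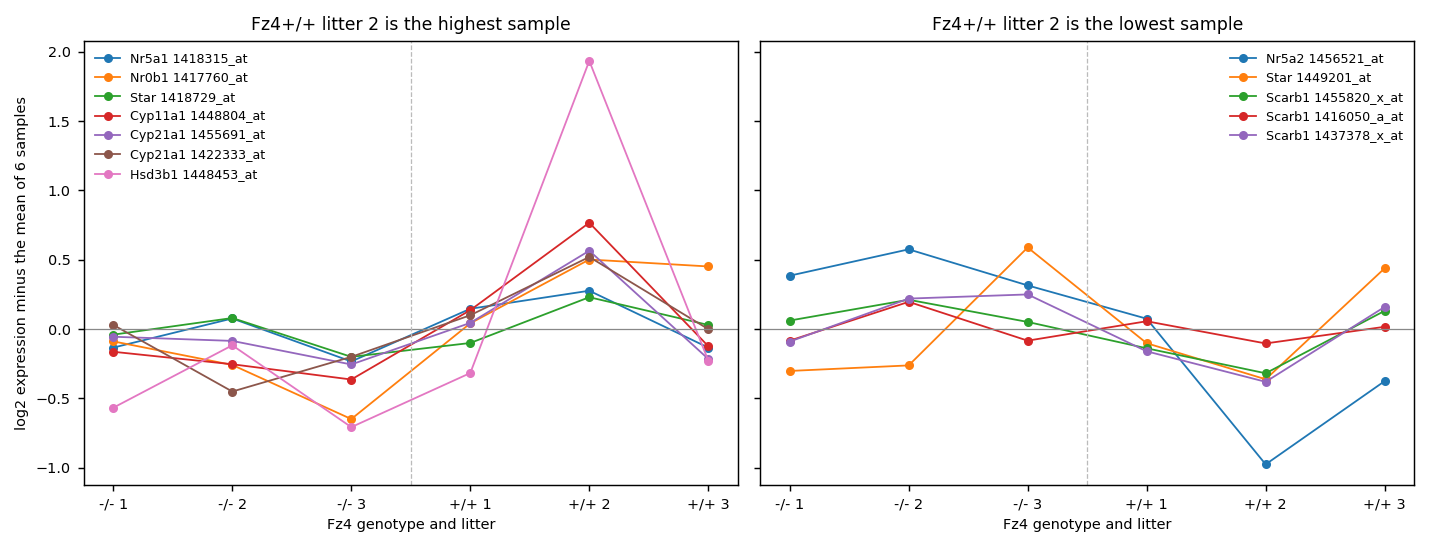
Log2 expression minus the mean of the 6 samples (y axis) in each Fz4-/- and Fz4+/+ sample (x axis, genotype and litter) for the 7 member probe sets that were highest (left) and the 5 that were lowest (right) in the Fz4+/+ sample of litter 2. The probe sets were chosen by that sample, so the plot is a description; Hsd3b1 stands far above the others on the left and Nr5a2 1456521_at far below on the right.

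Measures outside the members were read in the same samples. On the control probe sets the 3' signal was above the 5' signal in all 6 samples, and a wider gap can mark more degraded RNA. In the Fz4+/+ sample of litter 2 the gap was 0.90 log2 with actin and 0.90 with Gapdh. In the others it was 0.64 to 0.86 with actin and 0.75 to 0.90 with Gapdh, where the Fz4+/+ sample of litter 3 also reached 0.90. Chromaffin cells, which make adrenaline, settle in the adrenal gland together with the cortex. The mean of 7 chromaffin genes was 6.56 log2 in the Fz4+/+ sample of litter 2 and 6.63 in that of litter 3, and 5.36 to 5.62 in the other 4 samples. All 7 of these genes read lower in Fz4-/-, with a median of -0.71, and 0 were called by limma, with 3 at an unadjusted p under 0.05. Pnmt, of the last step to adrenaline, read 6.76, 6.61 and 6.10 in Fz4-/- and 7.03, 7.48 and 7.09 in Fz4+/+. The 3 probe sets of Dbh, of noradrenaline synthesis, all lay below the filter. The brightest, 1447592_at, differed by -0.39 ± 0.15 (SE), 1459848_x_at by -1.41 ± 0.60 and the dimmest, 1450670_at, by -1.84 ± 0.54. The cells that gave the signal of the chromaffin genes were not identified. Nr0b1 was high in both samples with a high mean of these genes, Hsd3b1, Cyp11a1 1448804_at and Cyp21a1 in the one of litter 2 alone. Nr5a1 1418315_at and Star 1418729_at were also highest in that of litter 2. Other members were not. In the same sample Star 1449201_at was the lowest of the 6 (6.51 log2). Mc2r (7.47) and Cyp11a1 1439947_at (5.77) lay there under their means of 7.78 and 5.82. Cyp17a1, Cyp11a1 1439947_at and 1457604_x_at were highest in the Fz4+/+ sample of litter 3. The mean of the 11 markers of steroid-making cells, most of them members, was 5.82 in the Fz4+/+ sample of litter 2. It was 5.53 in that of litter 3 and 5.29 to 5.41 in the others. Of these markers 6 were highest in the Fz4+/+ sample of litter 2, Hsd3b1 among them, against 18.2% of all non-control probe sets. The part of adrenal tissue, or of RNA quality, in the differences of the members was not tested.

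The summed gonad markers were nearly level, although single genes were not. The mean of 8 somatic gonad genes, which include Amh of Sertoli cells and Foxl2 of the ovary, lay between 6.26 and 6.41 log2 in all samples. The brightest of them were Sox9 and Cyp26b1, at means of 9.13 and 8.11. Whether their signal came from gonad or kidney cells was not tested, so the level mean does not measure gonad tissue. The mean of 5 germ cell genes lay between 5.26 and 5.51. Dazl, the brightest germ cell gene, read 6.75, 6.45 and 5.78 in Fz4-/- and 7.23, 6.48 and 5.19 in Fz4+/+, lowest in litter 3 in both genotypes. Inha, a subunit of the hormone inhibin, read 6.80 to 7.96, and Ddx4 of germ cells 4.44 to 5.48. Amh read 5.41 to 5.69 and the brighter Foxl2 probe set 3.52 to 3.95. Dmrt1 was highest in the Fz4+/+ sample of litter 2, at 6.09 against 5.10 to 5.70. The Y-linked gene Eif2s3y read 4.48 in the Fz4+/+ sample of litter 1 and 9.74 to 10.89 in the others, while Xist read 12.05 to 12.54 on its brightest probe set in all 6. The Y-linked genes Kdm5d and Uty were also lowest in that Fz4+/+ sample, at 3.71 and 3.75 on their brightest probe sets. Y-linked signal was thus not matched between the genotypes of litter 1, and its part in the readings of the members was not tested. Of the members, only Nr5a2 1420410_at and 1449706_s_at were highest in the Fz4+/+ sample of litter 1. Nr0b1, the member on the X chromosome, differed by -0.13 in litter 1, against -0.76 and -1.11 in litters 2 and 3.

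Hepatocyte genes were followed because liver also expresses Nr5a2 and Scarb1. The mean of 8 such genes was 7.91 log2 in the Fz4+/+ sample of litter 3, 7.41 and 7.39 in the Fz4-/- and Fz4+/+ samples of litter 1, and 6.15 to 6.42 in the other 3. In the sample with the highest hepatocyte mean Nr5a2 1456521_at read 5.84, the second lowest, and Scarb1 1455820_x_at read 9.37, the second highest. The part of liver RNA in these readings was not tested.

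**Figure D4:**
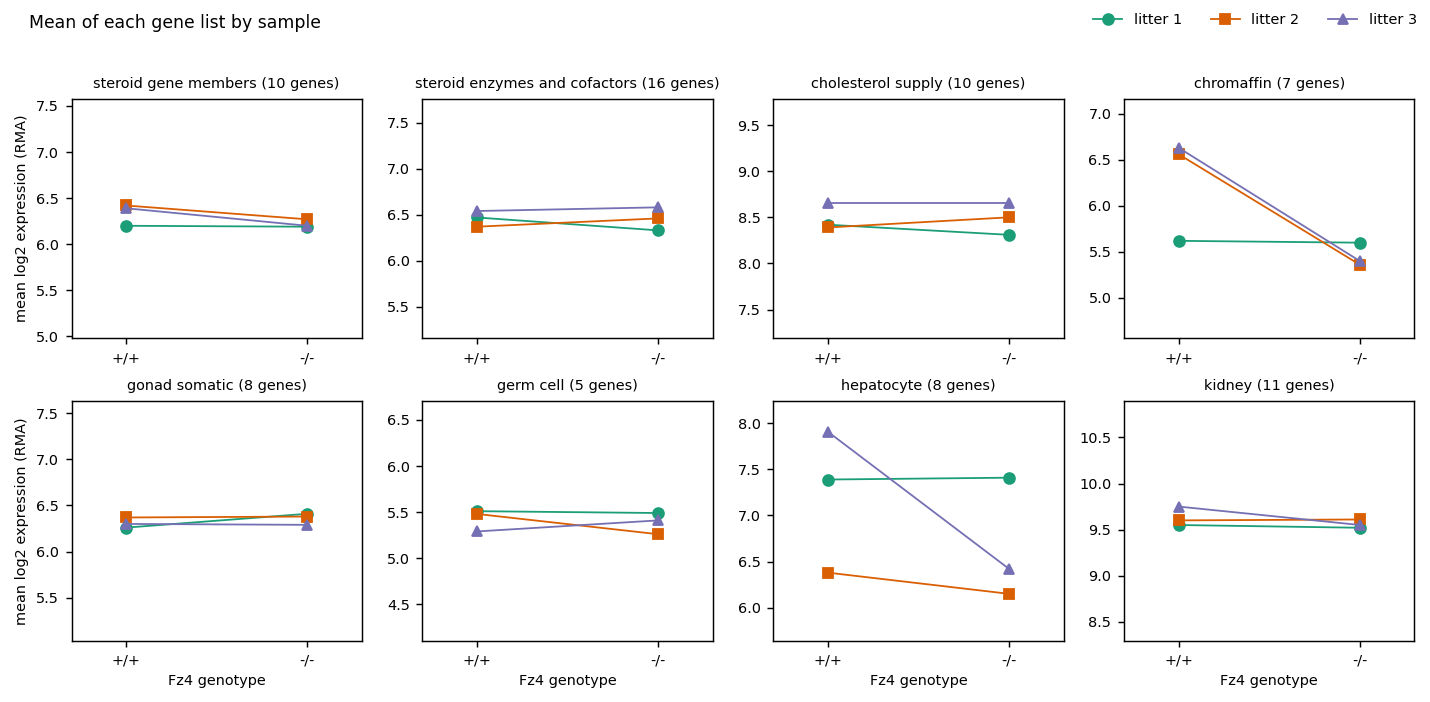
Mean log2 expression of 8 gene lists (y axis, each panel spanning the same width) in Fz4+/+ and Fz4-/- samples (x axis), with lines joining the samples of a litter. The chromaffin mean was lower in Fz4-/- by 1.20 in litter 2 and 1.23 in litter 3 but by 0.03 in litter 1. The member mean differed by at most 0.19, and it pools 6 genes that read lower in Fz4-/- with 4 that read higher.

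No gene of the wider pathway was called. Of 16 further steroid enzymes and cofactors, taken by their brightest probe set, 8 read lower and 8 higher, with a median of -0.01 log2, and 0 were called by limma, with 0 at an unadjusted p under 0.05. Those with the smallest unadjusted p were Hsd11b1, which reactivates glucocorticoid, at 0.50 ± 0.27 (SE), Cyp11b2, of aldosterone synthesis, at -0.31 ± 0.18, Hsd17b3, of testosterone synthesis, at -0.16 ± 0.11 and Papss2 at 0.29 ± 0.27. Of these, Hsd11b1, Cyp11b2 and Hsd17b3 lay below the filter, at means of 5.00, 3.13 and 2.90 log2. The electron donor Fdx1, which serves Cyp11a1, read 8.89, 9.08 and 9.26 in Fz4-/- and 9.23, 9.07 and 9.09 in Fz4+/+. Hsd11b2, which inactivates glucocorticoid in kidney epithelium, read 10.34 to 10.57 and differed by -0.10 ± 0.11. The last 2 genes also serve cells that make no steroid.

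Genes of cholesterol storage and transport likewise showed no call. Of 10 measured, 7 read lower and 3 higher, with a median of -0.03 log2 and 0 at an unadjusted p under 0.05 in limma. Stard4, a cholesterol carrier, differed by 0.18 ± 0.13 (SE) on its brightest probe set and the exporter gene Abca1 by -0.20 ± 0.20. Of 18 regulators of adrenal and gonad formation 6 read lower and 12 higher, with a median of 0.05 and 0 at an unadjusted p under 0.05. The smallest unadjusted p among them was that of Gata4, a partner of Nr5a1 in gonads, which read 4.56, 4.54 and 4.44 in Fz4-/- and 4.71, 4.74 and 4.97 in Fz4+/+. Its groups did not overlap, at a difference of -0.29 ± 0.12 and limma's unadjusted p of 0.0503. This probe set lay below the filter, and 2.44% of all non-control probe sets were likewise lower in Fz4-/- with no overlap. Gli1, a hedgehog target, differed by 0.34 ± 0.16.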

How the data were processed

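RNA of 6 whole kidney samples was hybridised to 6 arrays. Per the submitters' processing notes the authors used RMA, of unstated version, and they deposited 1 log2 expression value for each probe set and array, from 2.22 to 14.79. They were used as deposited. RMA equalises the arrays' distributions and flattens differences at low signal. Detection calls, which need the scans, were not made. Precision is limited by the number of arrays.

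The platform annotation gave 1 gene for 34958 of 45101 probe sets, several for 932 and none for 9211. Entrez numbers matched RefSeq (GRCm38.p6) for all 21 member probe sets. After 64 controls were left out, 27022 probe sets with a mean at or above the 40th percentile were tested with limma 3.58.1 in R 4.3.3 (lmFit, eBayes, genotype alone, two-sided, Benjamini-Hochberg, threshold 0.05). Probe sets below it took their SE and p from the same fit over 45037 probe sets. Single values were compared by two-sided exact permutation.

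Equal replicate numbers mark a shared litter, per the labels. Deviations from the genotype means correlated by 0.577, 0.178 and 0.809 in litters 1 to 3, and by -0.749 to 0.609 between samples of different litters, where the highest joined Fz4-/- of litter 1 to Fz4+/+ of litter 2. The litter block was an alternative fit, beside other filters, normalisation, variance priors, array weights, samples left out and averaging over the probe sets of a gene. Named genes were all member probe sets, Fzd4, up to 4 genes of each list by unadjusted p, and the 8 nearest profiles. Other genes were named after their values were seen. Members and lists were chosen with earlier results of these data known. The fit was tested on simulated data.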

Additional observations from a re-analysis of the deposited data

How the results depend on the processing

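No member was called in any fit: the count of called member probe sets was 0 throughout, as was that of member genes when their probe sets were averaged. Over all tested probe sets limma called 0 except with array weights (2, with 6084 at an unadjusted p under 0.05). The latter count, 239 as reported, was 531 without the filter, 367 with a filter at the 20th percentile, 841 with the litter as a block, 126 with a trended prior and 1102 without litter 3. Leaving out 1 sample in turn gave 124 (Fz4-/-, litter 2) to 1725 (Fz4+/+, litter 3), and 404 where Fz4-/- of litter 1 was left out. The litter block changed no call.

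Of the 21 member probe sets 11 kept their direction in all 14 alternatives and 10 turned at least once. The cause was not tested. The other filters, the variance priors and the litter block leave each difference as it is and change its SE and p alone. A direction could not turn in those fits. With another quantile normalisation Nr5a2 1449707_at read 0.04, Star 1449201_at -0.01, Cyp11a1 1439947_at 0.02 and Scarb1 1416050_a_at -0.02. With array weights, Nr5a2 1449707_at read 0.12, Cyp11a1 1439947_at 0.20, and Star 1449201_at, 1418728_at and 1418729_at -0.11, 0.24 and 0.10. Without litter 3, Nr5a2 1420410_at and 1449707_at read 0.05 and 0.01, Star 1449201_at -0.05, Cyp11a1 1439947_at 0.19, Cyp17a1 0.03 and Mc2r -0.01. The mean of its probe sets gave Star -0.03. Leaving out 1 sample in turn gave ranges that crossed 0 for Nr5a1 1421730_at (-0.06 to 0.15), Nr5a2 1420410_at (-0.24 to 0.15) and 1449707_at (-0.19 to 0.14), Star 1449201_at (-0.27 to 0.24) and 1418728_at (-0.19 to 0.15), Cyp11a1 1439947_at (-0.12 to 0.10), Mc2r (-0.21 to 0.26) and Scarb1 1416050_a_at (-0.07 to 0.07). Such ranges were -0.81 to -0.51 for Nr0b1, 0.58 to 1.10 for Nr5a2 1456521_at, -1.31 to -0.19 for Hsd3b1 and -0.71 to -0.27 for Cyp11a1 1448804_at. They were -0.36 to -0.06 for Cyp17a1, -0.43 to -0.04 and -0.53 to -0.26 for Cyp21a1 1455691_at and 1422333_at, -0.31 to -0.10 for Nr5a1 1418315_at, -0.50 to -0.22 for Nr5a2 1449706_s_at, -0.18 to -0.01 for Star 1418729_at, -0.17 to -0.05 for Cyp11a1 1457604_x_at, and 0.13 to 0.40 and 0.10 to 0.33 for Scarb1 1437378_x_at and 1455820_x_at. Signal over background was not measured, and 11 member probe sets lay below the filter.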

Other observations

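The profile of Hsd3b1, which varied most of all member probe sets, was set against all non-control probe sets in the same way as that of Nr5a2, a choice made after its values were seen. The nearest were Btn1a1 (0.306 log2), Hoxb1 (0.344), Vmn1r44 (0.411), Pik3cd (0.430), Lrba, 4933409F18Rik, Smco2 and Ubr2. None of these 8 is in the lists of adrenal, gonad or chromaffin genes used here, but those lists hold few of the genes on the array, so no conclusion is drawn from this. Each was highest in the Fz4+/+ sample of litter 2, at 5.55 to 6.62 log2, which follows from their choice by a profile that was highest there. Btn1a1 read 4.18, 4.24 and 3.77 in Fz4-/- and 3.79, 5.75 and 4.33 in Fz4+/+. Akr1c18, which breaks down progesterone, read 4.81, 6.14 and 7.11 in Fz4-/- and 5.53, 5.35 and 7.32 in Fz4+/+. It was highest in litter 3 in both genotypes, and within litters 1 to 3 it differed by -0.71, 0.79 and -0.20. Litter 3 gave the 2 highest samples on 27.5% of all non-control probe sets.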
